A study of Caenorhabditis elegans with 10 samples.

Results

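The genes described here make or package the small-molecule transmitters of *Caenorhabditis elegans* neurons. They were chosen by name and not by a rule on their values, although earlier results of these data were known. They are *eat-4* (WBGene00001135) for glutamate, *unc-17* (WBGene00006756) and *cha-1* (WBGene00000481) for acetylcholine, *unc-25* (WBGene00006762) and *unc-47* (WBGene00006783) for GABA, and *cat-1* (WBGene00000295), *cat-2* (WBGene00000296), *tph-1* (WBGene00006600) and *bas-1* (WBGene00000239) for the monoamines. Of these 9 genes 7 had a row among the 18451 rows of the table, matched by WormBase gene identifier. *unc-17* and *cha-1*, the acetylcholine pair, were not analysed here, so every count below is of 7 genes.

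A neuron that releases a classical transmitter needs an enzyme that makes it, or a supply of it from metabolism, and a transporter that loads it into synaptic vesicles. Because each transporter serves its own transmitter class, these genes mark which neurons a preparation holds. PVD, a nociceptor whose dendrite branches over the body wall, and OLL, a pair of head mechanosensory neurons, are known as glutamatergic. *eat-4* is therefore the gene of this set known from these neurons, and the GABA and monoamine genes mark other neurons of the animal.

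The study profiled 4 groups of L2/L3 larvae kept at 25 °C, with 1 Affymetrix tiling array per sample and 10 arrays in all. *mec-3(e1338)* mutants and wild type (N2) each gave 3 arrays of PVD/OLL RNA and 2 arrays of whole-animal RNA. MEC-3 is a LIM homeodomain protein that specifies touch neurons and that PVD needs to branch its dendrite. PVD/OLL RNA was recovered by mRNA tagging, that is, by immunoprecipitation of PAB-1, a poly(A) binding protein given a FLAG epitope and expressed in both genotypes under the *ser-2prom3B* promoter, which drives it in PVD and OLL together. Whole-animal RNA was total RNA of the lysate, and whether those animals carried the tag is not given in the sources used here. The titles number the samples as biological replicates. Whether they came from separate cultures is not stated. The p-values set each difference against the spread between the samples in the fit, and whether that is a spread between cultures is unknown.

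Values are log2 expression values. Array medians lay between 6.51 and 6.77 and lower quartiles between 4.56 and 5.44, and the lower quartile of each PVD/OLL array lay below that of each whole-animal array. No detection calls were used, and whether the dim values stand above background is unknown. *eat-4* marks a transmitter class and does not define PVD and OLL. Markers that define them, and the level of *mec-3* itself, could not be checked, because rows outside the set carry identifiers that are not paired with names. A gene was called different where limma's p, adjusted by Benjamini-Hochberg over all 18451 rows, lay under 0.05. Differences carry the moderated standard error (SE) and a 95% confidence interval.

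PVD/OLL was first set against whole animals, which asks which of these transcripts the tagged neurons were enriched for. *eat-4*, the vesicular glutamate transporter, was higher in PVD/OLL than in whole animals in both genotypes, 2.81-fold in *mec-3* and 1.77-fold in wild type. None of the 6 GABA and monoamine genes was called higher or lower in either genotype. Of all genes, 7.59% were called higher and 19.1% lower in *mec-3*, and 9.61% and 18.9% in wild type. The mRNA tagging was done only for PVD/OLL samples, so cell type and preparation cannot be told apart in these differences, nor can a share of cells and an amount of RNA per cell.

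On the *mec-3* arrays *eat-4* measured 7.23, 7.0 and 7.21 (log2) in PVD/OLL, against 5.86 and 5.45 in whole animals. On the wild-type arrays it measured 6.91, 6.48 and 7.07 in PVD/OLL, against 5.72 and 6.28 in whole animals. In both genotypes the lowest PVD/OLL array lay above the highest whole-animal array, as for 19.9% of all genes in *mec-3* and 18.6% in wild type. In wild type the gap was narrow, with PVD/OLL replicate 2 at 6.48 and whole-animal replicate 2 at 6.28. On each array's own scale *eat-4* stood between the percentiles 56.4 and 59.7 of all genes in *mec-3* PVD/OLL and between 48.0 and 57.2 in wild-type PVD/OLL. In whole animals it stood between 31.7 and 37.9 in *mec-3* and between 35.1 and 40.5 in wild type.

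**Figure D1:**
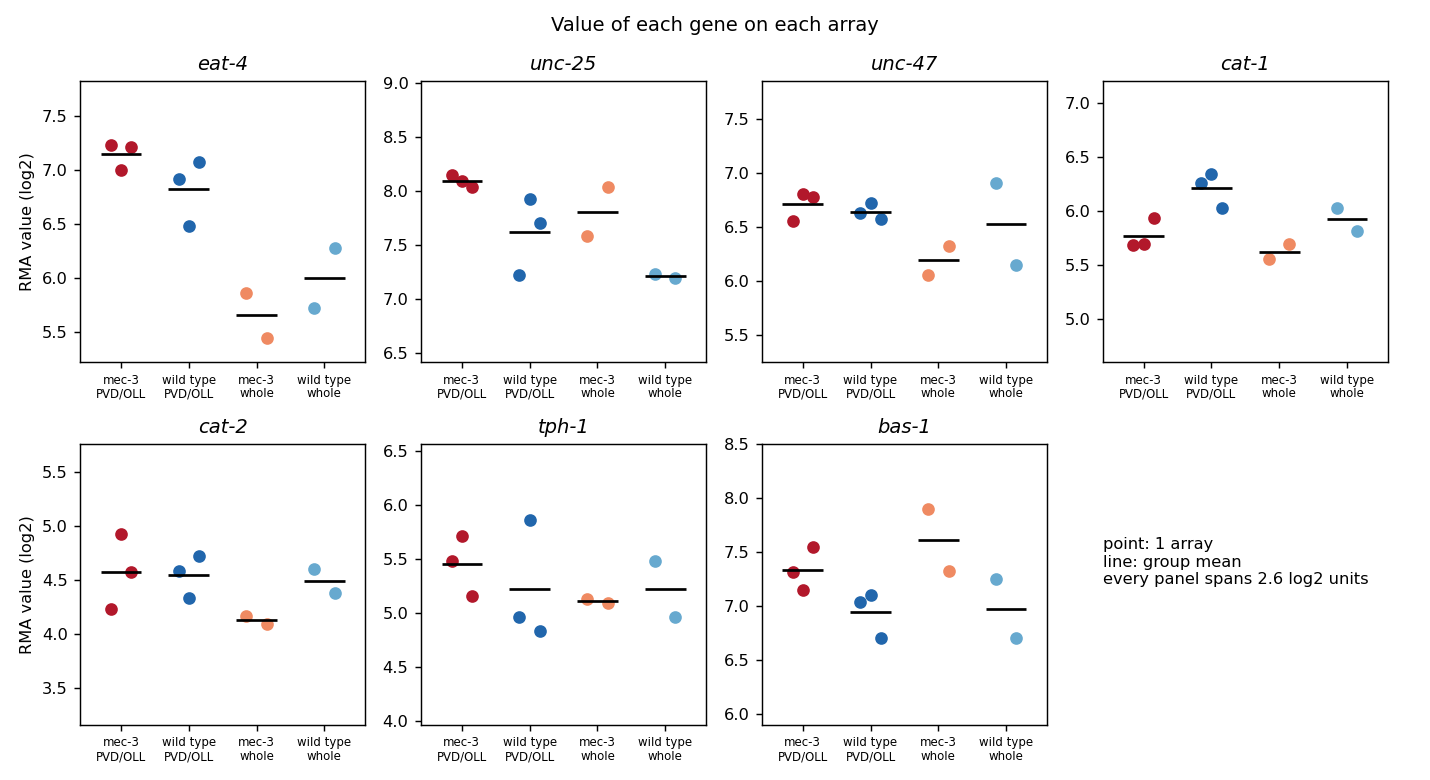
RMA value (log2) of each of the 7 genes on each of the 10 arrays, by group; points are arrays, lines are group means, and every panel spans the same range. *eat-4* lies at 6.48 to 7.23 on the PVD/OLL arrays and at 5.45 to 6.28 on the whole-animal arrays. In wild type the groups of each of the other 6 genes overlap. In *mec-3* the PVD/OLL arrays of *unc-25*, *unc-47*, *cat-2* and *tph-1* also lie above the whole-animal arrays, as for 19.9% of all genes. For *unc-25* that gap is less than the printed digits show.

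The enrichment of *eat-4* was 1.49 in *mec-3* (log2, SE 0.26, 95% interval 0.91 to 2.07, limma adjusted p = 0.00379). In wild type it was 0.82 (SE 0.26, 95% interval 0.25 to 1.40, limma adjusted p = 0.0383). At that threshold 7.59% of all genes were called higher in *mec-3*, 9.61% in wild type and 4.76% in both. The median over all genes was -0.28 for *mec-3* and -0.21 for wild type, and relative to it *eat-4* was 1.77 and 1.03 higher. Its difference lay at percentile 98.8 of all genes in *mec-3* and at percentile 90.6 in wild type. In each genotype, leaving out an array of the other genotype kept this difference and changed the estimate of the spread. The call held in *mec-3* with each of the 10 arrays left out (limma adjusted p 0.00338 to 0.0401). In wild type it held in 4 of these 10 fits. Without wild-type whole-animal replicate 1 the wild-type difference was 0.54 (limma adjusted p = 0.203), and the call was also lost in the fit with a replicate block (0.74, limma adjusted p = 0.0813).

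Averaged over both genotypes, a contrast chosen after the data were seen, the enrichment of *eat-4* was 1.16 (log2, SE 0.18, 95% interval 0.75 to 1.56, limma adjusted p = 7.90e-04), or 2.23-fold. By this contrast 14.4% of all genes were called higher and 32.8% lower. The *eat-4* call held with each array left out, at 1.02 to 1.29. None of the other 6 genes was called, although *cat-1* and *cat-2* were after quantile normalization (limma adjusted p = 0.0321 and 0.00996). Without wild-type PVD/OLL replicate 1 *unc-25* was called too (0.44, limma adjusted p = 0.0442). The difference of *unc-47* was 0.32, and 0.51 without wild-type whole-animal replicate 1.

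**Figure D2:**
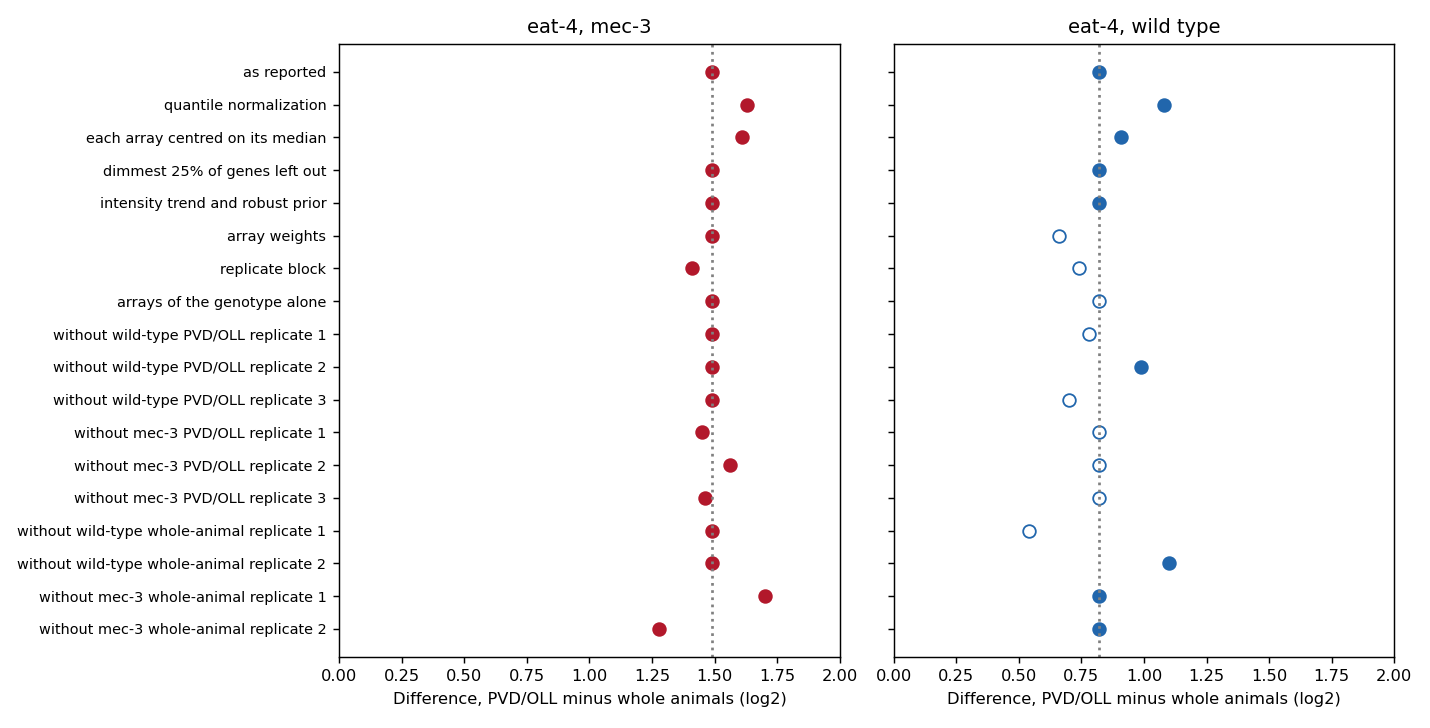
Difference of *eat-4*, PVD/OLL minus whole animals (log2), in *mec-3* at left and wild type at right, as reported and under each other setting of the fit; filled points have a limma adjusted p under 0.05. In *mec-3* all points are filled, between 1.28 and 1.70. In wild type they run between 0.54 and 1.10, and are filled as reported and under 8 of the 17 other settings.

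The GABA genes were next. *unc-25* encodes glutamic acid decarboxylase, which makes GABA from glutamate, and *unc-47* encodes the vesicular GABA transporter. Both are known from the ventral cord motor neurons that inhibit body muscle and from a few head and tail neurons. PVD and OLL are not counted among the GABA neurons. *unc-25* measured 8.15, 8.10 and 8.03 in *mec-3* PVD/OLL, against 7.58 and 8.03 in *mec-3* whole animals. Wild-type PVD/OLL gave 7.22, 7.92 and 7.71, against 7.23 and 7.20 in wild-type whole animals. The PVD/OLL means were above the whole-animal means, but in wild type PVD/OLL replicate 1 stood level with whole animals. The difference was 0.29 in *mec-3* (95% interval -0.26 to 0.83, limma adjusted p = 0.405) and 0.40 in wild type (95% interval -0.14 to 0.95, limma adjusted p = 0.238).

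*unc-47* measured 6.56, 6.81 and 6.78 in *mec-3* PVD/OLL, against 6.06 and 6.33 in *mec-3* whole animals, and the groups did not overlap. On the wild-type arrays *unc-47* measured 6.63, 6.73 and 6.57 in PVD/OLL, against 6.91 and 6.15 in whole animals, whose 2 arrays lay on either side of the PVD/OLL values. The difference was 0.52 in *mec-3* (95% interval -0.03 to 1.07, limma adjusted p = 0.138) and 0.11 in wild type (95% interval -0.44 to 0.66, limma adjusted p = 0.762). A rise of 2-fold, 1 on the log2 scale, lay inside the *mec-3* interval of *unc-47* and outside both intervals of *unc-25*.

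**Figure D3:**
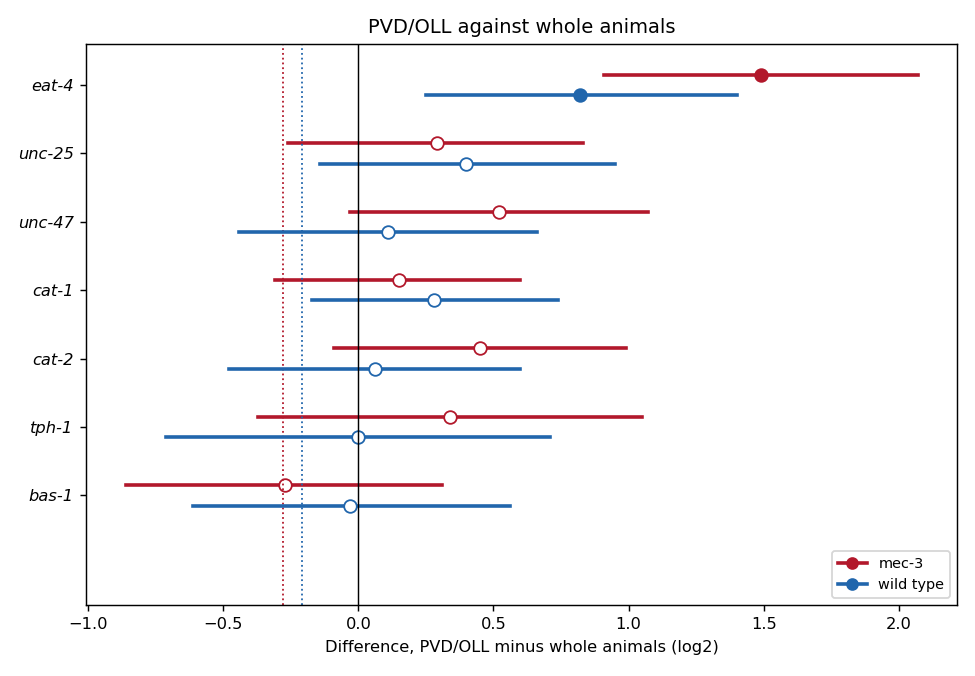
Difference between PVD/OLL and whole animals (log2) for each gene in *mec-3* and wild type, with 95% confidence intervals; filled points are called, and dotted lines mark the median over all genes, at -0.28 for *mec-3* and -0.21 for wild type. *eat-4* is called in both genotypes, and the intervals of the other 6 genes hold 0.

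The monoamine genes serve dopamine, serotonin and related transmitters. *cat-1* encodes the vesicular monoamine transporter shared by all of these neurons, *cat-2* tyrosine hydroxylase of dopamine neurons, *tph-1* tryptophan hydroxylase of serotonin neurons, and *bas-1* the aromatic amino acid decarboxylase used for both. One class of dopamine neurons, PDE, arises from the same lineage as PVD and lies beside it. *cat-2* stood low among all rows of each array, between percentiles 16.9 and 30.6 on PVD/OLL arrays and between 5.22 and 14.2 on whole-animal arrays. It measured 4.23, 4.93 and 4.57 in *mec-3* PVD/OLL, against 4.17 and 4.09 in *mec-3* whole animals. Wild-type PVD/OLL gave 4.58, 4.33 and 4.72, against 4.60 and 4.38 in wild-type whole animals. The *mec-3* groups did not overlap and the wild-type groups did.

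The difference of *cat-2* was 0.45 in *mec-3* (95% interval -0.09 to 0.99, limma adjusted p = 0.192) and 0.06 in wild type (limma adjusted p = 0.880). Genes of its level were lower in PVD/OLL, with medians of -0.52 in *mec-3* and -0.50 in wild type over the dimmest 25% of all genes. After quantile normalization of the arrays the *cat-2* difference in *mec-3* was 0.95 and was called (limma adjusted p = 0.0272). A call for *cat-2* thus depended on the normalization, and the cause was not tested.

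*cat-1* measured 5.69, 5.69 and 5.93 in *mec-3* PVD/OLL, against 5.55 and 5.69 in *mec-3* whole animals, and these groups overlapped by less than the printed digits show. Wild-type PVD/OLL gave 6.26, 6.34 and 6.03, against 6.03 and 5.82 in wild-type whole animals. Its difference was 0.15 in *mec-3* (95% interval -0.31 to 0.60, limma adjusted p = 0.619) and 0.28 in wild type (95% interval -0.17 to 0.74, limma adjusted p = 0.321). *tph-1* measured 5.47, 5.71 and 5.15 in *mec-3* PVD/OLL, against 5.12 and 5.09 in *mec-3* whole animals. Wild-type PVD/OLL gave 4.96, 5.86 and 4.83, against 5.48 and 4.96 in wild-type whole animals. That range of 1.03 in wild-type PVD/OLL was the widest of any gene and group among the 7. The difference of *tph-1* was 0.34 in *mec-3* (95% interval -0.37 to 1.05, limma adjusted p = 0.452) and 0.00 in wild type (95% interval -0.71 to 0.71, limma adjusted p = 1).

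*bas-1* alone had PVD/OLL means below the whole-animal means, by small amounts. It measured 7.31, 7.15 and 7.55 in *mec-3* PVD/OLL, against 7.90 and 7.33 in *mec-3* whole animals, and 7.04, 7.11 and 6.71 in wild-type PVD/OLL, against 7.25 and 6.70 in wild-type whole animals. Its difference was -0.27 in *mec-3* (95% interval -0.86 to 0.31, limma adjusted p = 0.461). The wild-type value was -0.03 (95% interval -0.61 to 0.56, limma adjusted p = 0.945), and 0.03 after quantile normalization and 0.06 with each array centred on its median. The gene listed next to *bas-1* in the WBcel235 annotation is *basl-1*, named for its likeness to *bas-1*. How probes were assigned to these genes is not given in the sources used here, so the *bas-1* value is uncertain to that extent.

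As a group, the 7 genes had a median difference of 0.34 in *mec-3*, against -0.28 over all genes, and of 0.11 in wild type, against -0.21 over all genes. *bas-1* lay below 0 in each genotype, *tph-1* at 0.00 in wild type, and the others above 0. No gene of the 7 was called lower in PVD/OLL, where 19.1% of all genes were called lower in *mec-3* and 18.9% in wild type. After quantile normalization those shares of all genes were 9.22% and 12%, and again 0 of the 7 genes were among them. Non-overlapping groups, higher in PVD/OLL, were seen for 5 of the 7 genes in *mec-3*, against 19.9% of all genes, and for 1, *eat-4*, in wild type, against 18.6% of all genes, though *unc-25* in *mec-3* was parted by less than the printed digits show.

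Setting *eat-4* against the other 6 genes on the same array removes any shift common to all of them. The value of *eat-4* minus their median was 1.10, 0.74 and 0.86 (log2) in *mec-3* PVD/OLL, against 0.06 and -0.56 in *mec-3* whole animals. In wild type it was 0.47, -0.05 and 0.77 in PVD/OLL, against -0.75 and 0.29 in whole animals. The *mec-3* kinds of sample did not overlap, and in wild type PVD/OLL replicate 2 lay below whole-animal replicate 2. The mean difference on this scale was 1.15 for *mec-3* and 0.62 for wild type, given as a description without a test. Gene by gene, the enrichment of *eat-4* exceeded that of each of the other 6 by 0.97 to 1.77 in *mec-3* and by 0.42 to 0.85 in wild type. The wild-type margin depended on which whole-animal array was kept. Without wild-type whole-animal replicate 1 the wild-type enrichment was 0.54 for *eat-4* and 0.49 for *unc-47*. Without replicate 2 these values were 1.10 and -0.27.

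**Figure D4:**
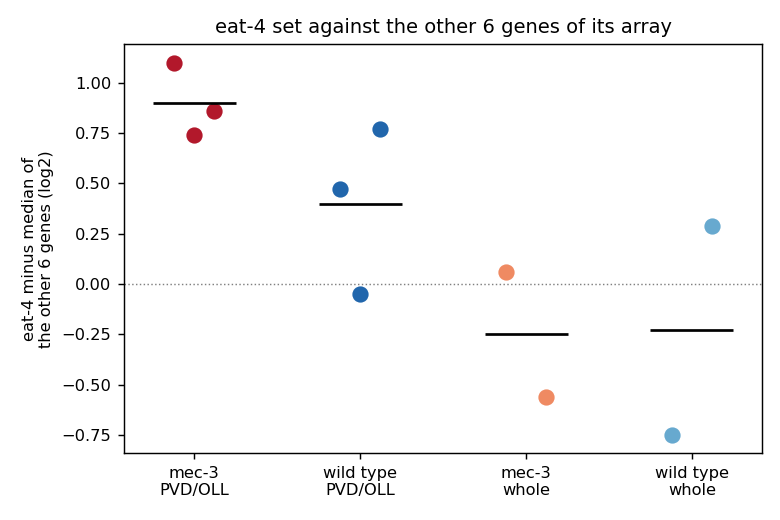
*eat-4* minus the median of the other 6 genes on the same array (log2), by group; points are arrays and lines are group means. The *mec-3* PVD/OLL arrays lie at 0.74 to 1.10, and the wild-type PVD/OLL arrays, at -0.05 to 0.77, overlap the wild-type whole-animal arrays.

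Setting *mec-3* against wild type asks whether loss of the factor changed these transcripts. In PVD/OLL 0 of the 7 genes were called different by limma, where 6.13% of all genes were called. At an unadjusted p under 0.05 there was 1 of 7, *cat-1*, against 21.1% of all genes. *eat-4*, at the values given above, was 7.15 ± 0.13 in *mec-3* PVD/OLL and 6.82 ± 0.30 in wild-type PVD/OLL (log2, SD, n = 3 each). The groups overlapped, and the difference was 0.32 (SE 0.21, 95% interval -0.15 to 0.80, limma adjusted p = 0.434). It was 0.15 without wild-type PVD/OLL replicate 2 and 0.28 to 0.45 without each of the other 5 arrays. A fall of *eat-4* in *mec-3* PVD/OLL by more than 0.15 on the log2 scale lay outside that interval, and a 2-fold rise did so too. The interval holds for RNA of PVD and OLL together, and neither neuron was measured alone.

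*cat-1* was 5.77 ± 0.14 in *mec-3* PVD/OLL and 6.21 ± 0.16 in wild-type PVD/OLL (log2, SD, n = 3 each). All 3 *mec-3* arrays lay below all 3 wild-type arrays, as for 13.9% of all genes. The difference of -0.44 (SE 0.18, 95% interval -0.86 to -0.02) did not pass over all genes (limma adjusted p = 0.214). *unc-25* and *bas-1* lay the other way, with all 3 *mec-3* arrays above all 3 wild-type arrays, as for 13.5% of all genes. Their differences were 0.48 (limma adjusted p = 0.259) and 0.39 (limma adjusted p = 0.315). The differences of *unc-47*, *cat-2* and *tph-1* were 0.07, 0.03 and 0.23, with overlapping groups and limma adjusted p between 0.721 and 0.958. The sign for *tph-1* turned with array weights, to -0.10.

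**Figure D5:**
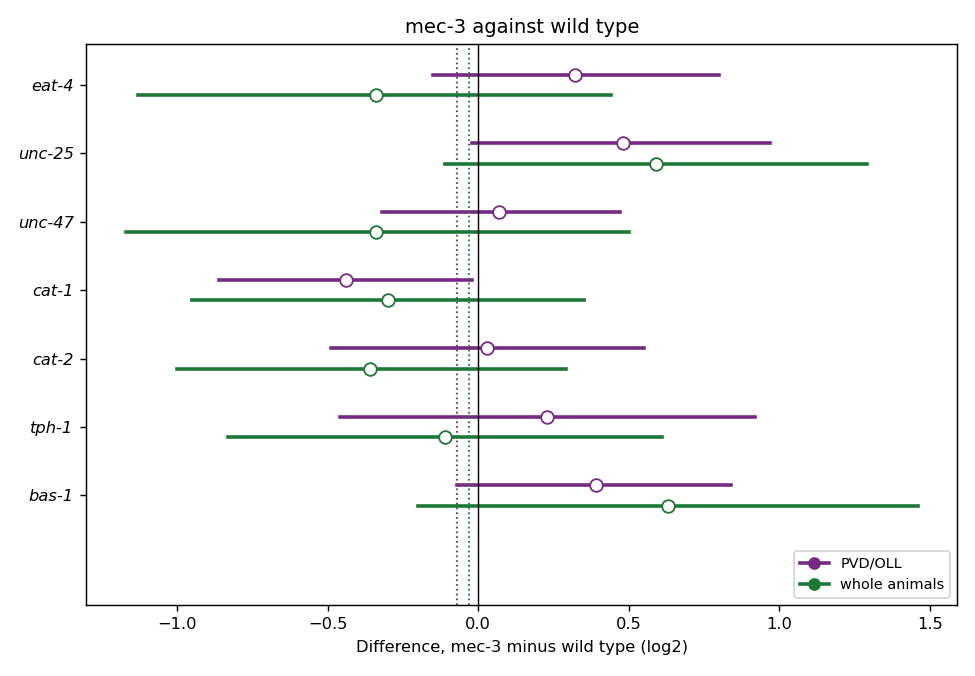
Difference between *mec-3* and wild type (log2) for each gene in PVD/OLL and in whole animals, with 95% confidence intervals; open points are not called, and dotted lines mark the median over all genes, at -0.07 in PVD/OLL and -0.03 in whole animals. All points are open, and *unc-25* and *bas-1* lie above 0 and *cat-1* below 0 in both kinds of sample.

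In whole animals, with 2 arrays per genotype, 0 of the 7 genes were called by limma, where 5.54% of all genes were called, and 0 had an unadjusted p under 0.05, against 21.5% of all genes. The largest differences were those of *bas-1*, 0.63 (95% interval -0.20 to 1.46, limma adjusted p = 0.363), and *unc-25*, 0.59 (95% interval -0.11 to 1.29, limma adjusted p = 0.311). Both *mec-3* arrays lay above both wild-type arrays for these genes, as for 25.2% of all genes. *cat-1*, at -0.30, and *cat-2*, at -0.36, had both *mec-3* arrays below both wild-type arrays, as for 25.4% of all genes (limma adjusted p = 0.609 and 0.526). *eat-4* averaged 5.66 ± 0.29 in *mec-3* whole animals and 6.0 ± 0.39 in wild-type whole animals (log2, SD, n = 2 each), a difference of -0.34 with overlapping groups (limma adjusted p = 0.633). Leaving out *mec-3* replicate 1 or 2 gave -0.55 or -0.14, and leaving out wild-type replicate 1 or 2 gave -0.62 or -0.07. *unc-47* differed by -0.34 and *tph-1* by -0.11, with overlapping groups, and the value for *tph-1* was 0.06 after quantile normalization. The intervals in whole animals were wide, and that of *eat-4* ran between -1.13 and 0.44.

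The difference of *eat-4* between genotypes was thus 0.32 in PVD/OLL and -0.34 in whole animals. The test of that difference of differences over all 10 arrays gave 0.67 (log2, SE 0.37, 95% interval -0.15 to 1.48) and was not called (limma adjusted p = 0.612). With an array left out it lay between 0.39 and 0.95, the values when wild-type whole-animal replicate 2 or 1 was dropped, and was not called (limma adjusted p 0.307 to 0.883). The same value is the amount by which the enrichment of *eat-4* was larger in *mec-3* than in wild type, which is therefore not shown to differ. By this test 0 of the 7 genes were called by limma, at either the adjusted or the unadjusted threshold, where 0.00542% of all genes were called and 9.80% had an unadjusted p under 0.05. The other 6 differences of differences ran between -0.25 for *bas-1* and 0.41 for *unc-47*.

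Ordered by mean level, *eat-4* was highest in *mec-3* PVD/OLL, then wild-type PVD/OLL, wild-type whole animals and *mec-3* whole animals. Of the neighbours in that order, the step between wild-type PVD/OLL and wild-type whole animals passed the test as reported, and the steps between genotypes did not. The call for that wild-type step held under 8 of the 17 other settings of the fit and was lost under the rest. *eat-4* also varied the most over the 10 arrays of the 7 genes, with an SD of 0.66, higher than that of 74.9% of all genes. The other 6 genes had SDs between 0.26 for *cat-1* and *cat-2* and 0.39 for *unc-25*, and no more than 31.2% of all genes varied less than any of them.

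Over the 10 arrays, which fall into 4 groups, correlations among the 7 genes are a description only. The highest was that of *unc-47* with *cat-2* (Pearson's r 0.65), and the lowest that of *cat-1* with *bas-1* (-0.45). The GABA pair, *unc-25* and *unc-47*, which act in the same neurons, correlated at 0.20, and *eat-4* with the other 6 at -0.26 to 0.53. Among 14742 rows whose SD was at least 0.5 times that of *eat-4*, the most similar over the 10 arrays were WBGene00012740 (r 0.973) and WBGene00013006 (r 0.971), which the files used here do not pair with names. WBGene00012740 averaged 8.31 in *mec-3* PVD/OLL and 7.19 in *mec-3* whole animals (log2), and 7.97 in wild-type PVD/OLL and 7.26 in wild-type whole animals. It had the same order of the 2 kinds of sample as *eat-4*, which is no separate result, because it was picked by its correlation over these arrays. For *cat-2* and *tph-1* the 5 most similar rows reached r of 0.790 to 0.922 and 0.796 to 0.867.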

How the data were processed

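The authors deposited 1 log2 value per gene identifier and array, made with RMA, which corrects background, normalizes arrays and summarises the probes of a gene, per the submitters' processing notes. No version is named. The log2 scale was read from the values. The sources used here do not give the genome build, the probe assignment or any filter. Whether PVD/OLL and whole-animal arrays were normalized together is not stated either. RMA values of different genes carry different probe responses, so tests compared arrays and not genes; a percentile gives a row's place among all rows of its array and is no measure of abundance.

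Groups came from the sample titles. Linear models were fitted with limma 3.58.1 (R 4.3.3; lmFit, then eBayes) to all 18451 rows, unfiltered, with two-sided tests; p-values were adjusted over these rows by the Benjamini-Hochberg method. *mec-3* was compared with wild type in PVD/OLL on 6 arrays and in whole animals on 4. PVD/OLL was compared with whole animals, and the difference of differences taken, in 1 fit of 10 arrays. The number of arrays limits the precision. The fits were tested on simulated data.

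The genes and comparisons were chosen with earlier results of these data known. All 7 genes with a row are named in each comparison. Similar rows were named by the highest Pearson's r, as planned for *eat-4*, *cat-2* and *tph-1*. The reference table (WBcel235, 46926 rows) holds 0 of the identifiers, so names were taken from the list that defines the set, and planned lists of related genes and of cell type markers were not analysed here. Replicate numbers were not taken as pairs. Deviations of same-numbered *mec-3* and wild-type PVD/OLL arrays from their group means correlated at -0.06 to 0.04, and differently numbered ones at -0.07 to 0.06. Same-numbered whole-animal arrays correlated at 0.05, and *mec-3* PVD/OLL and whole-animal arrays at 0.00 and 0.01. Wild-type PVD/OLL and whole-animal arrays correlated at 0.19 for number 1 and -0.03 for number 2, and at -0.19 to 0.18 with different numbers. In groups of 2 arrays the deviations mirror each other, so correlations with whole-animal arrays are not separate checks.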

Additional observations from a re-analysis of the deposited data

How the results depend on the processing

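The alternatives were quantile normalization, centring on the median, leaving out the dimmest 25% of genes (which removes *cat-2*), array weights, a robust prior with an intensity trend, a replicate block, other arrays in the fit, a looser threshold of 0.10, and fits without each array. Genotype differences and differences of differences gave 0 called genes under each. In *mec-3* the enrichment call of *eat-4* held under each; quantile normalization called 2 genes, *eat-4* and *cat-2*, in place of 1. In wild type the 1 call became 0 with array weights (*eat-4* 0.66, limma adjusted p = 0.134), with the replicate block (0.74, limma adjusted p = 0.0813) and with the wild-type arrays alone (0.82, limma adjusted p = 0.109), and was 0 to 1 with an array left out. It was lost without any 1 of the *mec-3* PVD/OLL arrays, replicate 1 or 3 of wild-type PVD/OLL, or wild-type whole-animal replicate 1. The fits without a *mec-3* PVD/OLL array kept the difference of 0.82 and had fewer arrays to estimate the spread (limma adjusted p = 0.0542 to 0.0572). The replicate block changed no other call. Over both genotypes the count of 1 was 3 with quantile normalization, adding *cat-1* and *cat-2*, and 1 to 2 with an array left out: *unc-25* was called without wild-type PVD/OLL replicate 1 (limma adjusted p = 0.0442) and *unc-47* without wild-type whole-animal replicate 1 (limma adjusted p = 0.025).

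Signs that turned belonged to uncalled genes. With array weights *tph-1* was -0.10 for *mec-3* against wild type in PVD/OLL, and in wild-type enrichment *cat-2* was -0.05 and *bas-1* 0.06. Quantile normalization turned *tph-1* in whole animals to 0.06 and *bas-1* in wild-type enrichment to 0.03, and centring gave *bas-1* 0.06. The cause was not tested. With an array left out, *cat-2* ran from -0.15 to 0.20 between genotypes in PVD/OLL, and in whole animals *unc-47* ran from -0.72 to 0.04 and *tph-1* from -0.37 to 0.15. In *mec-3* enrichment *bas-1* ran from -0.56 to 0.01. In wild-type enrichment *unc-47* ran from -0.27 to 0.49, *cat-2* from -0.05 to 0.17, *tph-1* from -0.32 to 0.26 and *bas-1* from -0.30 to 0.25. In the difference of differences *unc-25* ran from -0.34 to 0.11 and *bas-1* from -0.53 to 0.04. For rows low on the arrays, such as *cat-2*, the background is unknown.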
